A study of Mus musculus with 18 samples.

Results

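Spp1 and Lpl are 2 of the 55401 genes counted in each of 18 mouse macrophage RNA-seq libraries. They were taken by symbol because both had differed from the controls in all 3 perturbations of Smim30, a gene for a small membrane protein, with the direction seen after mutation opposite to that seen after knockdown. They were thus selected on their counts in those 3 comparisons, so their levels and fold changes in those 3 perturbations are given as a description, without a test. The libraries were made from total RNA with a strand-specific protocol and form 6 groups of 3. All cells were C57BL/6J and all had been given lipopolysaccharide (LPS, a bacterial cell wall component) at 5 ng/ml for 6 h, so no group shows the unstimulated state. WT and Mut are peritoneal macrophages from wild-type and Smim30-mutant mice. The groups called here Mut AdCtrl and Mut AdSmim30 (Mut-Control and Mut-SMIM30-OE in the labels) are Mut macrophages given a control adenovirus or one for Smim30 overexpression, added 6 h after seeding and left for 24 h before LPS. The groups siCtrl and siSmim30 are cells of IC-21, a transformed line derived from mouse peritoneal macrophages, transfected with control or Smim30 siRNA for 24 h before LPS. The labels do not state the mutated bases, the insert of the virus, or the age and number of the mice, and they do not say whether the 3 samples of a group were separate mice or cultures. A p-value here speaks only for the spread among these samples, and that spread could be purely technical.

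Spp1 encodes osteopontin, a secreted phosphoprotein that binds integrins and CD44 and acts on cell adhesion and migration, and it belongs to the SIBLING family of bone and tooth matrix proteins. Lpl encodes lipoprotein lipase, which is released from cells and splits the triglycerides of circulating lipoproteins into fatty acids. Macrophages make both proteins, and both are well known from foam cells and other lipid-laden macrophages.

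In GRCm38, Spp1 (ENSMUSG00000029304.14) lies on chromosome 5 from 104435118 to 104441050 on the plus strand, and 1648 bases of exon were counted. Its transcript Spp1-201 has 7 exons and 1410 bases. Lpl (ENSMUSG00000015568.16) lies on chromosome 8 from 68880491 to 68907448, also on the plus strand, and 10478 bases were counted because retained-intron models enter the exon set. Its transcript Lpl-201 has 10 exons and 4115 bases. Gm42793, an unclassified model on the same strand inside Spp1, reached at most 97 counts in a library, and reads shared with it would be credited to neither gene. A promoter of Spp1 is shown because the gene differed between groups in every comparison. RefSeq's table for GRCm38.p6, matched by symbol, had entries for 1 of the 2 genes, Spp1, with 2 annotated starts. The 250 bases before the first start, chr5:104434861-104435110 on the plus strand, are printed with matches to 7 short motifs in capitals. The window of the second, chr5:104435942-104436191, lies inside the gene and holds none of the 7.

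Spp1 promoter: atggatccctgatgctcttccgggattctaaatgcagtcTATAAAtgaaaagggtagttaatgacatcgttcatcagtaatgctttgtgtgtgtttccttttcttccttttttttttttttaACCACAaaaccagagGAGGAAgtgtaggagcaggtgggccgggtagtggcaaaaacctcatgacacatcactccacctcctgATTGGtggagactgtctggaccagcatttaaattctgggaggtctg

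All 7 motifs, spelled out in the next sentences, were searched on both strands. The motif TATAAA begins 211 bases before the start, and 12.4% of 32851 promoters of that length hold it. The motif TGTGGT lies 128 bases before the start on the minus strand, where the plus strand reads ACCACA, and is held by 14% of those promoters. The motif GAGGAA begins 113 bases before the start and is held by 23.3%. The motif CCAAT lies 46 bases before the start on the minus strand, where the plus strand reads ATTGG, and is held by 33.8%. These matches do not overlap. The letters of GGGCGG, which 32.7% of those promoters hold, do not occur in this window. The same is true of TGANTCA, held by 6.75% of them, and of CACGTG, held by 6.02%. A match is a string of letters and was not tested for binding.

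Library totals ran from 6855245 to 13456857 counts, at which 3 counts correspond to 0.223 to 0.438 CPM (counts scaled to a library total of 1000000). Within groups, pairs of libraries gave a chi-square of 1.67 to 5.24 per gene, above sampling noise, so none was a copy of another. Smim30, listed under its older symbol 2610001J05Rik, was at 48.1 ± 3.45 CPM (SD, n = 3) in WT and 48.7 ± 5.65 in Mut, a log2 difference of 0.01 ± 0.08 (SE, edgeR adjusted p = 0.966), so the count does not separate these labels. It was at 43.9 ± 1.86 CPM in Mut AdCtrl and 53.1 ± 1.86 in Mut AdSmim30, a log2 difference of 0.28 ± 0.06 (adjusted p = 0.0052). That call was lost with DESeq2 (0.0684), in a fit of all 18 libraries (0.0532), without Mut AdCtrl replicate 2 (0.059) and without Mut AdSmim30 replicate 3 (0.113). In IC-21 cells it fell from 21.4 ± 1.26 to 10.7 ± 1.69 CPM after siRNA (log2 change -0.97 ± 0.12, adjusted p = 6.17e-08). The 8 macrophage markers summed to 9783 to 11756 CPM in the peritoneal libraries and 2826 to 3022 CPM in IC-21, a gap mostly of Lyz2 (group mean 7438 CPM in WT and 719 in siCtrl), while Itgam (87.1 and 142) and Fcgr1 (3.31 and 36.5) were higher in siCtrl than in WT. The 8 markers of large peritoneal macrophages summed to 8.02 to 13.1 CPM in siCtrl and 11.2 to 14.1 CPM in siSmim30. Among them Gata6, Timd4 and Prg4 were at 0 in IC-21. Thbs1 had group means of 7.23 CPM in siCtrl and 9.77 in siSmim30, and Icam2 was higher in siCtrl (3.13) than in WT (2.06).

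Both genes were abundant in every library. Lpl took 0.163 to 0.504% of all counts and Spp1 0.0671 to 0.178%. Ranked by counts per kilobase of counted exon, Spp1 stood between 16 and 69 among all genes and Lpl between 61 and 166. Adipocytes are another strong source of Lpl, but Adipoq, Plin1, Lep, Cidec and Retn, which mark them, were all at 0 in WT and Mut and summed to at most 0.292 CPM in the other libraries.

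Both genes were higher in Mut than in WT macrophages. Spp1 was at 671, 721 and 787 CPM in the WT libraries and at 1133, 1231 and 1194 CPM in the Mut libraries. Every Mut library lay above every WT library, and the fold was 1.62 (log2 0.70 ± 0.05 SE). Lpl was at 3381, 3328 and 3636 CPM in WT and at 4571, 5037 and 4988 CPM in Mut. Again the groups did not overlap, and the fold was 1.40 (log2 0.49 ± 0.05). Among 12500 genes, 11.4% had all Mut libraries above all WT libraries, and 1.63% had a larger log2 increase than Spp1 and 3.87% than Lpl. Counts of ribosomal RNA genes took 1.74 to 2.49% of the WT and 0.399 to 1.03% of the Mut libraries, and the log2 differences without those genes were 0.70 and 0.49. The 8 large peritoneal macrophage markers summed to 288 to 300 CPM in WT and 183 to 203 CPM in Mut, with no marker at 0. Most of that gap in CPM is 1 gene, Thbs1, at 253 ± 6.04 CPM in WT and 159 ± 9.48 in Mut. The median log2 change of the 6 markers tested was -0.46, against -0.01 over all genes. Of the 6 that were tested 2 fell, beside 2.62% of all genes, Thbs1 (log2 change -0.69 ± 0.05, adjusted p = 1.44e-10) and the lubricin gene Prg4, and the other 4, Gata6 and Timd4 among them, did not pass. The Prg4 call (adjusted p = 0.0352) was lost without any 1 of WT replicates 1, 2 and 3 and Mut replicates 2 and 3, with adjusted p from 0.0605 to 0.17. The part of these markers in the difference was not tested. In bulk samples, fewer cells of a type and less RNA per cell cannot be told apart.

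Both genes were also higher with the Smim30 virus than with the control virus, by similar and smaller amounts. Spp1 was at 1556, 1601 and 1526 CPM with the control virus and at 1752, 1765 and 1779 CPM with the Smim30 virus, a fold of 1.13 (log2 0.18 ± 0.02). Lpl was at 3647, 3759.5 and 3798 CPM with the control virus and at 4191, 4246 and 4351 CPM with the Smim30 virus, a fold of 1.14 (log2 0.19 ± 0.02). For neither gene did the groups overlap, which was so in the upward direction for 7.47% of 12701 genes. A larger log2 increase than that of Spp1 was seen for 10.4% of genes and than that of Lpl for 9.49%. Of 7 fibroblast markers tested 6 fell, beside 0.842% of all genes (median log2 change -1.08 against 0.00 over all genes). Their sum was 93.4 to 113 CPM with the control virus and 51.7 to 59.4 CPM with the Smim30 virus, with none of the 8 at 0 in either group. Their part in the differences of Spp1 and Lpl was not tested.

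In IC-21 cells both genes were lower after Smim30 siRNA. Spp1 was at 1605, 1532 and 1593 CPM in siCtrl and at 1337, 1266 and 1293 CPM in siSmim30, which is 0.833 of the control level (log2 -0.26 ± 0.03). Lpl was at 2039.8, 1962 and 2052 CPM in siCtrl and at 1632, 1685 and 1654 CPM in siSmim30, which is 0.831 of the control level (log2 -0.27 ± 0.03). Every siSmim30 library lay below every siCtrl library for both genes, as did those of 9.01% of 13576 genes, while 7.22% of genes had a larger log2 decrease than Spp1 and 7.06% than Lpl. The fibroblast markers are near 0 in these cells, with a sum of 0.146 to 0.955 CPM.

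**Figure D1:**
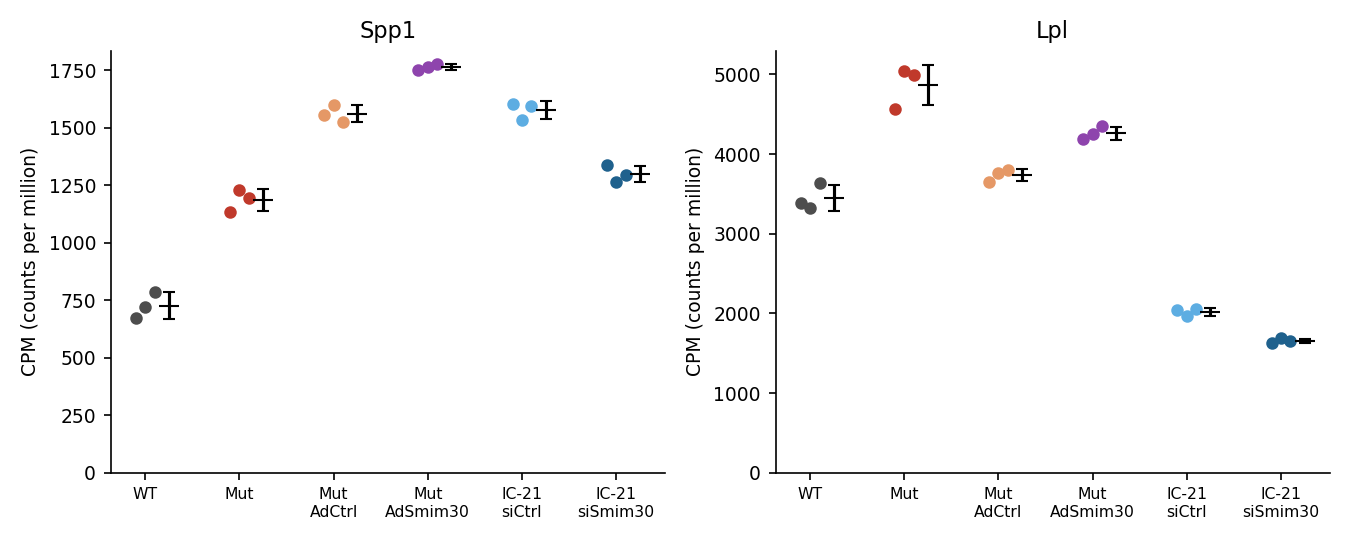
CPM of Spp1 (left) and Lpl (right) in each library of the 6 groups, with points for libraries and bars for the mean ± SD of 3. Mut lies above WT, Mut AdSmim30 above Mut AdCtrl and siSmim30 below siCtrl for both genes, and the 3 Mut AdCtrl libraries lie above Mut for Spp1 and below it for Lpl.

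The 2 genes therefore lay on the same side of the control within each perturbation, and the opposition is between perturbations: higher in Mut and with the Smim30 virus, lower with the siRNA. The mutation and the knockdown were studied in different cells, so cell type and perturbation cannot be told apart. Of 11191 genes tested in all 3 comparisons, 6 were called in all of them. Spp1 and Lpl are the 2 with this order of directions, which is how they were chosen, so their place here is a description. The other 4 were Mmp12 and Cdk6, higher in all 3, Dusp1, higher in Mut, lower with the virus and higher with the siRNA, and 1700017B05Rik, lower in Mut and with the virus and higher with the siRNA. These 6 were listed after their values were seen.

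**Figure D2:**
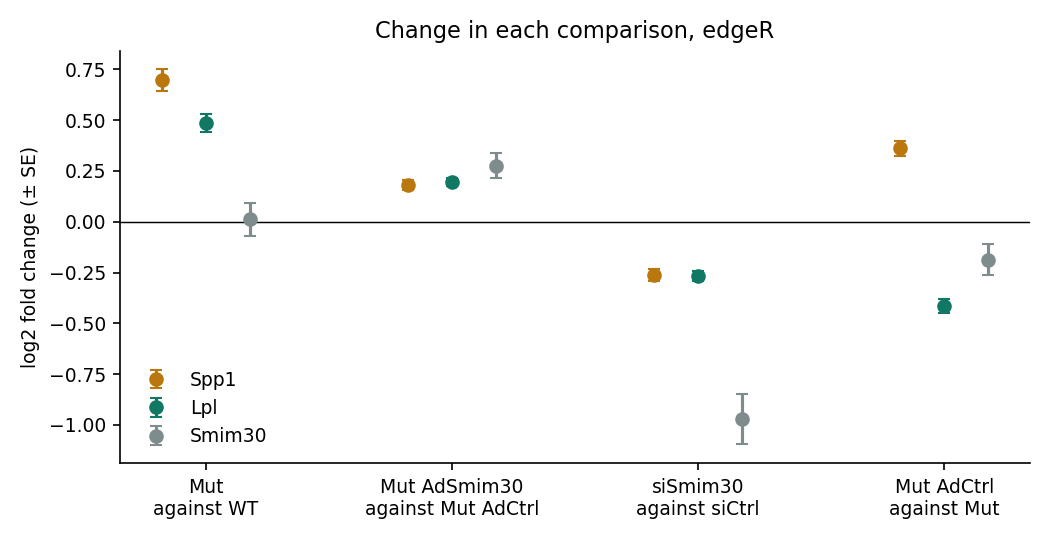
log2 fold change ± SE (edgeR, 3 against 3 libraries) of Spp1, Lpl and Smim30 in the 4 comparisons. The points of Spp1 and Lpl lie close together with the Smim30 virus (0.18 and 0.19) and the siRNA (-0.26 and -0.27) and on opposite sides of 0 for Mut AdCtrl against Mut (0.36 and -0.42).

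Mut AdCtrl against Mut separated the 2 genes. Its libraries are among those that served to choose the genes, so it too is described without a test. Spp1 was 1.29-fold higher in Mut AdCtrl (log2 difference 0.36 ± 0.04), and every virus-treated library lay above every Mut library. Lpl was at 0.750 of the Mut level (log2 difference -0.42 ± 0.04), and its libraries lay below those of Mut without overlap. In this comparison 53.6% of 12798 genes were called (27.1% higher and 26.5% lower). Without overlap, 30.2% were higher and 28.9% lower, while 22.8% had a larger log2 increase than Spp1 and 21.2% a larger decrease than Lpl, so these differences set neither gene apart. The control virus, the longer culture and the part of the series cannot be told apart here. The 7 tested fibroblast markers all fell (median log2 change -1.22), from a sum of 262 to 291 CPM in Mut. The part of those cells in the differences of Spp1 and Lpl was not tested.

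Across all 6 groups the order of levels differed between the genes. By mean CPM, Spp1 ran from WT (726 ± 58.1) through Mut (1186 ± 49.4), siSmim30 (1299 ± 35.8), Mut AdCtrl (1561 ± 37.6) and siCtrl (1577 ± 39.0) to Mut AdSmim30 (1766 ± 13.6). Only the ranges of the neighbours Mut AdCtrl and siCtrl overlapped, and the ends of the order were 2.43-fold apart. Lpl was lowest in siSmim30 (1657 ± 26.7), followed by siCtrl (2018 ± 48.5), WT (3448 ± 164), Mut AdCtrl (3735 ± 78.7) and Mut AdSmim30 (4262 ± 81.3), and highest in Mut (4865 ± 256), a 2.94-fold span with no overlap between neighbours. The place of the IC-21 groups depends on scaling. With a trimmed mean of M-values (TMM) scaling over all 18 libraries, chosen after seeing the data, the 2 IC-21 groups moved below Mut for Spp1 and siSmim30 overlapped WT. Lpl then kept its order, with WT and Mut AdCtrl overlapping, and its span widened to 4.84-fold.

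Taken within each library, the ratio of the 2 genes needs no scaling between libraries. The log2 ratio of Spp1 to Lpl, each per base of counted exon, was 0.42 ± 0.07 in WT, 0.63 ± 0.03 in Mut, 1.41 ± 0.05 in Mut AdCtrl, 1.40 ± 0.02 in Mut AdSmim30, 2.31 ± 0.01 in siCtrl and 2.32 ± 0.06 in siSmim30. Spp1 thus stood at 1.34 to 4.98 times Lpl per base. Neither the Smim30 virus nor the siRNA changed the ratio beyond the spread: the differences were -0.01 ± 0.03 (SE) and 0.00 ± 0.04, and the groups overlapped. The Mut and WT ratios did not overlap (difference 0.21 ± 0.04), nor did those of Mut AdCtrl and Mut (0.78 ± 0.03). The order of the genes rests on the length used: per base of the main transcript the log2 ratio was -0.70 in WT, -0.49 in Mut, 0.29 in Mut AdCtrl, 0.27 in Mut AdSmim30 and 1.19 in both IC-21 groups, so Lpl stood above Spp1 in WT and Mut.

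**Figure D3:**
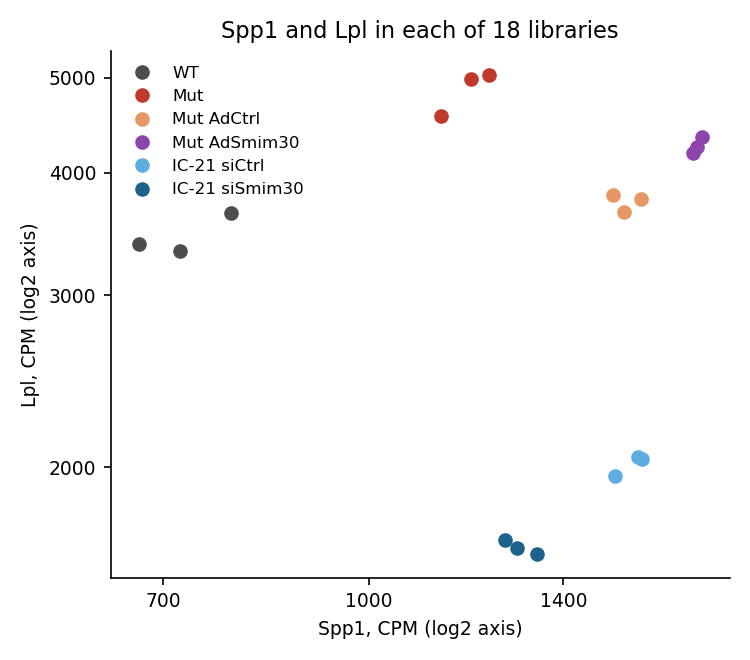
CPM of Spp1 (horizontal) against Lpl (vertical) in each of the 18 libraries, both axes on a log2 scale. Groups form separate clusters, and in each of the pairs WT and Mut, Mut AdCtrl and Mut AdSmim30, and siCtrl and siSmim30, the group higher in Spp1 is also higher in Lpl.

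Over the 18 libraries Spp1 and Lpl correlated with r = 0.58 in log2 CPM, and with r = 0.971 when each of the 3 parts of the series was centred on its mean. Centred on each group, r was 0.741, and over the 12 peritoneal libraries without centring it was 0.427. These are descriptions, since libraries of a group share their treatment and the comparisons that chose the genes set most of the centred spread. Among 7542 other genes each was the gene most like the other. Clone names and pseudogenes were left out of the alike and opposed genes named here. Next came Tmsb10, a thymosin that binds actin, at 0.929 with Spp1 and 0.924 with Lpl. Spp1 was then most like Mtpn (0.914), Acp5 (0.910) and Wdfy1 (0.907), and Lpl most like Tsc22d1 (0.896), Sh3kbp1 (0.895) and Wdfy1 (0.878). The genes most opposed to Spp1 were Nek9 (-0.90), Gmip (-0.89), Selenoi (-0.88), Ncapg2 (-0.86) and Abcc5 (-0.86), and those most opposed to Lpl were Selenoi (-0.91), Gmip (-0.88), Vav1 (-0.86), Rexo1 (-0.85) and Abcc5 (-0.85).

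Osteopontin acts through integrins and CD44, and of 10 such receptor genes 8 could be tested. In Mut 3 rose, beside 6.3% of all genes called (3.68% higher and 2.62% lower): Itgav from 252.8 to 346 TMM-scaled CPM (log2 change 0.45 ± 0.05, adjusted p = 1.77e-06), Itga5 (0.31 ± 0.05) and Itga4 (0.27 ± 0.06). The list's median log2 change was 0.17, against -0.01 over all genes. With the Smim30 virus, where 1.43% of all genes were called (0.583% higher and 0.842% lower), the list's single call was Itga4 (log2 change 0.20 ± 0.05, adjusted p = 0.00878). It was lost with DESeq2 (0.127), in the fit of all 18 libraries (0.0779), without Mut AdCtrl replicate 1 (0.194), and without Mut AdSmim30 replicate 2 (0.0547) or 3 (0.147). After the siRNA, with 3.48% of all genes called (2.39% higher and 1.09% lower), Itgav (0.19 ± 0.05, adjusted p = 0.0056), Itga5 (0.11 ± 0.03, adjusted p = 0.0418) and Cd44 (0.10 ± 0.03, adjusted p = 0.0276) rose, so in IC-21 these receptors moved up while Spp1 was lower. The Itgav call held in all 15 alternatives. That of Itga5 was lost without any 1 of siCtrl replicates 1, 2 and 3 and siSmim30 replicates 1 and 2 (adjusted p 0.089 to 0.302), and that of Cd44 without any 1 of siCtrl replicates 1 and 2 and siSmim30 replicates 1 and 2 (0.0546 to 0.281). Both were also lost with library totals alone (0.103 and 0.0824), in the fit of all 18 libraries (0.168 and 0.187) and with no filter (0.109 and 0.089). The Itga5 call was lost with DESeq2 as well (0.105). In Mut AdCtrl against Mut 2 rose, beside 27.1% of all genes, Itgb5 (1.79 ± 0.06) and Itgb3 (1.71 ± 0.09). There 4 fell, beside 26.5% of all genes, among them Itga4 (-0.91 ± 0.06) and Itga9 (-0.77 ± 0.14).

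Enzymes known to act on osteopontin, and its SIBLING relatives, made a list of 12 of which 5 were tested. In Mut 2 rose and 2 fell, beside 3.68% and 2.62% of all genes. Acp5, a phosphatase that removes phosphate from osteopontin, rose in Mut from 254.8 to 367 TMM-scaled CPM (log2 change 0.52 ± 0.06, adjusted p = 1.06e-06). Mmp12, a macrophage protease, rose there from 3206 to 4258 (0.41 ± 0.05, adjusted p = 4.68e-07). Mmp9 (-0.28 ± 0.08, adjusted p = 0.0297) and Tgm2 (-0.18 ± 0.05, adjusted p = 0.01) fell. The Mmp9 call was lost without any 1 of WT replicates 1, 2 and 3 and Mut replicate 1 (adjusted p 0.0587 to 0.171), and the Tgm2 call without WT replicate 2 or 3 or Mut replicate 2 (0.0745 to 0.121) and in the fit of all 18 libraries (0.0732). With the Smim30 virus Mmp12 rose by log2 0.11 ± 0.02 (adjusted p = 4.88e-05), a call lost in the fit of all 18 libraries (0.337). With the siRNA it rose by 0.49 ± 0.04 (adjusted p = 8.08e-16). Acp5 in IC-21 had a log2 difference of -0.24 ± 0.09 (adjusted p = 0.163). Mut AdCtrl against Mut saw 4 of the 5 fall, beside 26.5% of all genes, with Mmp9 at -3.04 ± 0.09 and Acp5 at -2.25 ± 0.05.

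Genes beside Spp1 and Lpl were followed in the 3 Smim30 comparisons. Of all genes, 6.3% were called in Mut against WT, 1.43% with the Smim30 virus and 3.48% with the siRNA. With only 6 or 7 neighbours tested each time, their counts cannot be told apart from those shares. Within 500 kb of Spp1 there are 24 annotated genes. The SIBLING genes Dspp, Dmp1 and Ibsp had 0 counts in all 18 libraries and Mepe 1 count in all. Of 6 neighbours tested in Mut against WT, Nudt9, a hydrolase of ADP-ribose whose end lies 369.7 kb before Spp1, rose by log2 0.34 (adjusted p = 0.00448). With the Smim30 virus 0 of 7 were called by edgeR, 0 had an unadjusted p under 0.05, and DESeq2 and limma-voom called 0. With the siRNA edgeR, DESeq2 and limma-voom each called 0 of 6, and 1 had an unadjusted p under 0.05. Within 500 kb of Lpl there are 18 genes and 6 were tested. None was called by the 3 tools in Mut against WT, where 1 had an unadjusted p under 0.05, or with the virus or the siRNA, where 0 did.

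Lipoprotein lipase is folded with Lmf1 and Sel1l, held at vessel walls by Gpihbp1 and inhibited by Angptl4. Lmf1 was at 11.1 to 23.5 CPM in group means and Angptl4 at 0.536 to 1.85 CPM. Gpihbp1, an endothelial gene, had 0 counts in every library. Of 18 genes of maturation and control, 8 were tested in Mut against WT and 2 fell, beside 2.62% of all genes: the sorting receptors Sort1 (log2 change -0.26 ± 0.06, adjusted p = 0.0035) and Sorl1 (-0.25 ± 0.07, adjusted p = 0.0362). The Sort1 call was lost without WT replicate 3 (0.0708), and the Sorl1 call with DESeq2 (0.102) and without any 1 of WT replicate 1 and Mut replicates 1, 2 and 3 (0.0731 to 0.299). With the virus, where 0.583% of all genes rose, the 1 call among 9 was Sorl1 (0.16 ± 0.04, adjusted p = 0.0433). That call was lost with DESeq2 (0.372) and without each library except Mut AdCtrl replicate 3 (0.101 to 0.371). With the siRNA, where 2.39% of all genes rose, the 1 call among 6 was Furin, a protease that cleaves lipoprotein lipase, at log2 0.33 ± 0.07 (adjusted p = 6.65e-04). In Mut AdCtrl against Mut, 4 of 9 rose, beside 27.1% of all genes, among them Sorl1 (0.90 ± 0.06). The 1 that fell, beside 26.5% of all genes, was Calr, a chaperone, by 0.69 on the log2 scale. Of the 6 related lipases, 2, 2, 3 and 2 were tested in the 4 comparisons and edgeR, DESeq2 and limma-voom called 0; 1, in Mut AdCtrl against Mut, had an unadjusted p under 0.05.

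Genes that take up, store and break down the lipids released by the lipase were followed in a list of 26. In Mut 2 of 24 tested rose and 5 fell, beside 3.68% and 2.62% of all genes, with a median log2 change of -0.08. DESeq2 called 5 of these 7. The calls of Acsl1, Lrp1, Fabp5 and Plin2 were lost when single libraries were left out: any 1 of WT replicates 2 and 3 and Mut replicates 1 and 2 for Acsl1, Fabp5 and Plin2 (adjusted p 0.058 to 0.267), and any 1 of WT replicates 1 and 3 and Mut replicates 1 and 3 for Lrp1 (0.0835 to 0.117). Soat1, which esterifies cholesterol, went from 637 to 504 TMM-scaled CPM (log2 change -0.34 ± 0.05, adjusted p = 4.44e-06), Mgll, a monoglyceride lipase, fell by 0.32 in log2 (adjusted p = 0.00345), and Msr1, a scavenger receptor, rose by 0.25 (adjusted p = 0.00293). With the Smim30 virus, where 0.583% of all genes rose and 0.842% fell, 2 rose, Msr1 (0.14 ± 0.03, adjusted p = 0.00207) and the fatty acid carrier Cd36 (0.11 ± 0.02, adjusted p = 5.19e-04), and Fabp4 fell (-0.14 ± 0.04, adjusted p = 0.0228). Both rises were lost in the fit of all 18 libraries (0.261 and 0.34), that of Msr1 also without Mut AdSmim30 replicate 3 (0.063). The fall of Fabp4 was lost with DESeq2 (0.236), in the fit of all 18 libraries (0.189) and without any 1 of Mut AdCtrl replicates 1 and 2 and Mut AdSmim30 replicates 1 and 3 (0.118 to 0.338). After the siRNA 2 of 23 rose and 4 fell, beside 2.39% and 1.09% of all genes; DESeq2 called 3 of these 6. The falls were led by the lipid droplet protein Plin3 (log2 change -0.33 ± 0.05, adjusted p = 6.28e-06). In Mut AdCtrl against Mut 15 of 24 rose and 7 fell, beside 27.1% and 26.5% of all genes, with Fabp4 at 2.40 ± 0.06, Nceh1 at 2.17 ± 0.06 and Acsl1 at -2.02 ± 0.05.

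Of 27 transcription factors known to act on either gene, 26 were tested in Mut against WT, where 4 rose and 2 fell, beside 3.68% and 2.62% of all genes. Jund (0.36 ± 0.05, adjusted p = 2.78e-05), Fosl2 (0.27 ± 0.05, adjusted p = 3.17e-04) and Mitf (0.26 ± 0.05, adjusted p = 0.00121) rose, and Tfeb fell (-0.35 ± 0.07, adjusted p = 0.00202). With the virus, where 0.842% of all genes fell, the single call among 26 was Cebpb, which fell (-0.20 ± 0.04, adjusted p = 0.0138). Cebpb lost its call in the fit of all 18 libraries (0.765) and without Mut AdCtrl replicate 1 (0.157) or 2 (0.117). With the siRNA 5 of 25 rose, beside 2.39% of all genes, among them Junb (0.30 ± 0.07, adjusted p = 0.00325), Mitf (0.22 ± 0.05, adjusted p = 0.00125) and Jun (0.19 ± 0.04, adjusted p = 6.86e-04). Jund (log2 change 0.36 and 0.26), Junb (0.22 and 0.30) and Mitf (0.26 and 0.22) were called higher both in Mut and after the siRNA. The siRNA call of Jund (edgeR adjusted p = 0.00549) was lost without siCtrl replicate 2 (0.0617) or siSmim30 replicate 3 (0.149). The part of these factors in the differences of Spp1 and Lpl was not tested. Pparg, the receptor known to drive Lpl in fat, was at 19.8 ± 1.49 CPM in WT and 17.6 ± 1.44 in Mut, at 84.1 ± 3.07 and 81.0 ± 4.22 CPM in the control and Smim30 virus groups, and at group means of 0.0764 and 0.326 CPM in IC-21, where it was too low to test. In Mut AdCtrl against Mut, where Lpl was lower, Pparg rose by log2 2.22 ± 0.08 (adjusted p = 3.23e-21) and Ppard fell by 2.04.

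**Figure D4:**
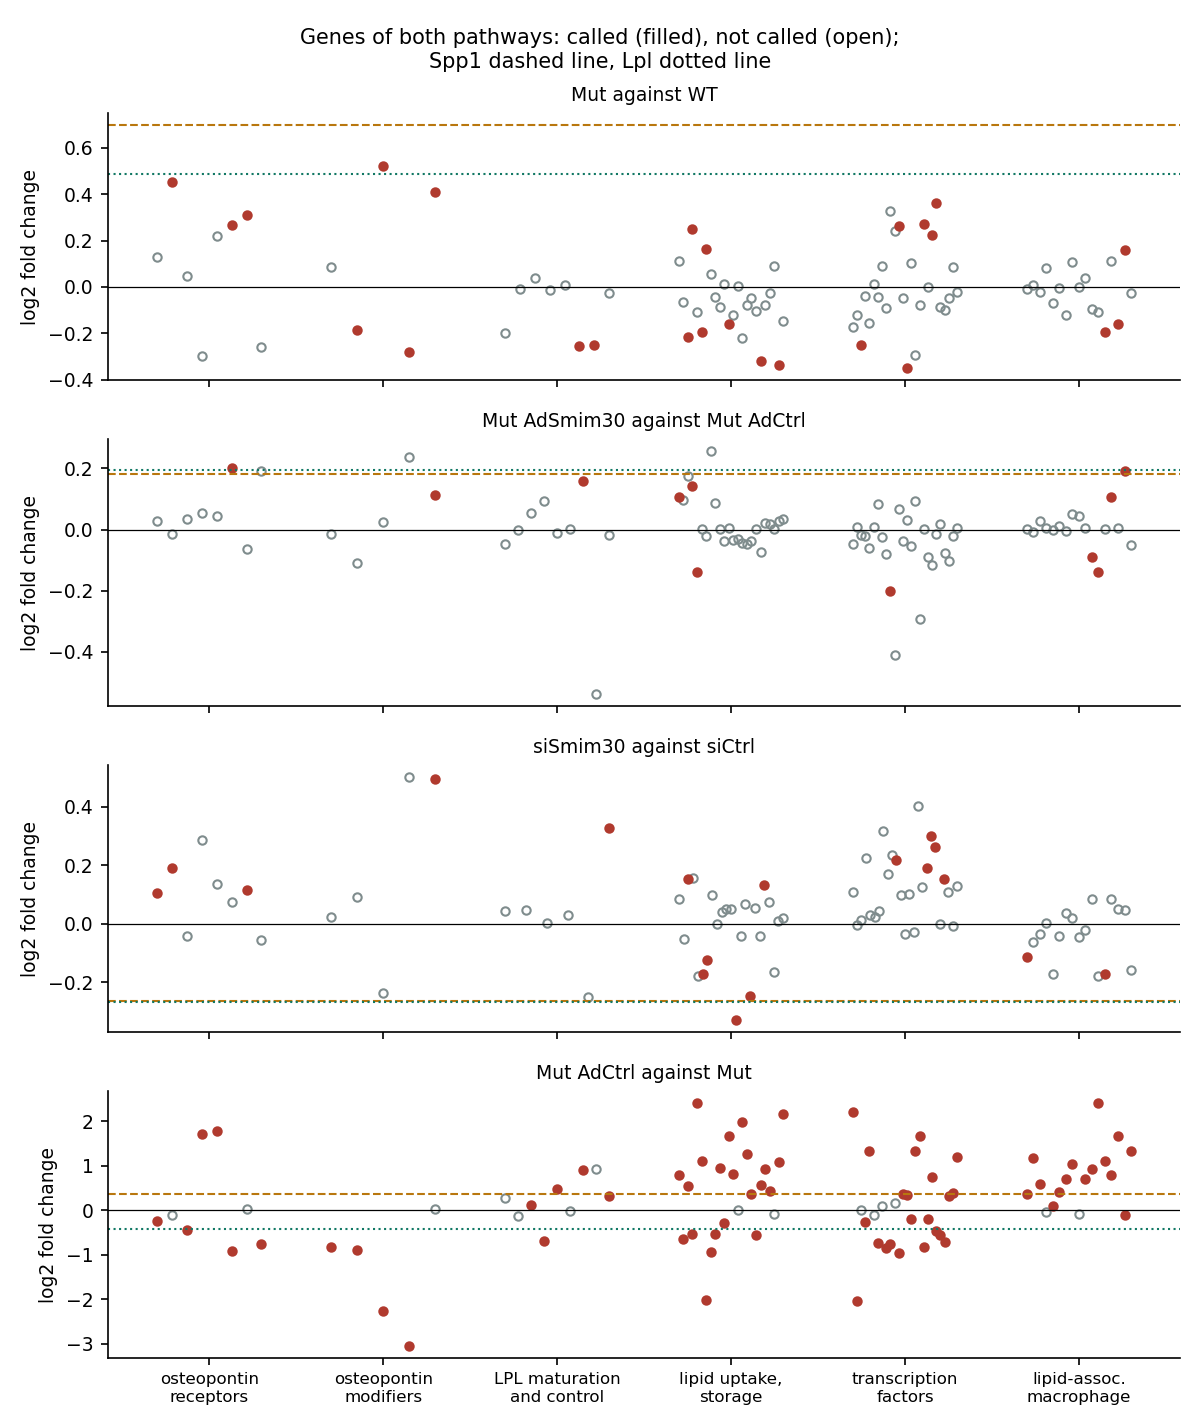
log2 fold change of each tested gene of 6 lists in the 4 comparisons, filled where the edgeR adjusted p was under 0.05 and open otherwise, with Spp1 as a dashed and Lpl as a dotted line. In Mut against WT no point of these lists lies above the Spp1 line at 0.70, and in the last panel, with its wider axis, most points are filled.

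Of the 11191 genes tested in all 3 Smim30 comparisons, 96, the pair included, were called in both Mut against WT and siSmim30 against siCtrl. In 21 the directions were opposite: 7 were higher in Mut and lower after the siRNA, and 14 the reverse. The 7 were Spp1, Lpl, Acsl1, Parp14, Rai14, Tsc22d1 and Wdfy1, listed after their values were seen. Spp1 and Lpl had been chosen for this opposition, so their place among the 7 is a description. With the Smim30 virus the other 5 had edgeR adjusted p from 0.106 (Tsc22d1, log2 difference 0.18) to 0.992 (Wdfy1, 0.00). The siRNA calls of Tsc22d1 and Wdfy1 were lost with DESeq2 (0.118 and 0.124) and when single libraries were left out: any 1 of the 3 siCtrl replicates and siSmim30 replicates 1 and 3 for Tsc22d1 (0.0767 to 0.186), and any 1 of siCtrl replicates 1 and 3 and siSmim30 replicates 1, 2 and 3 for Wdfy1 (0.0571 to 0.175). The siRNA calls of Acsl1 (0.055), Parp14 (0.155) and Rai14 (0.125) were lost with DESeq2 as well. They were also lost without any 1 of siCtrl replicate 2 and siSmim30 replicates 2 and 3 for Acsl1 (0.0745 to 0.231), of siCtrl replicates 1 and 3 and siSmim30 replicates 1, 2 and 3 for Parp14 (0.0564 to 0.234), and of the 3 siCtrl replicates and siSmim30 replicates 1 and 3 for Rai14 (0.0604 to 0.167). In Mut against WT the calls of Parp14 (0.0812 to 0.242) and Rai14 (0.0643 to 0.265) needed every library except Mut replicate 3, and that of Acsl1 (0.0682 to 0.223) WT replicates 2 and 3 and Mut replicates 1 and 2.

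**Figure D5:**
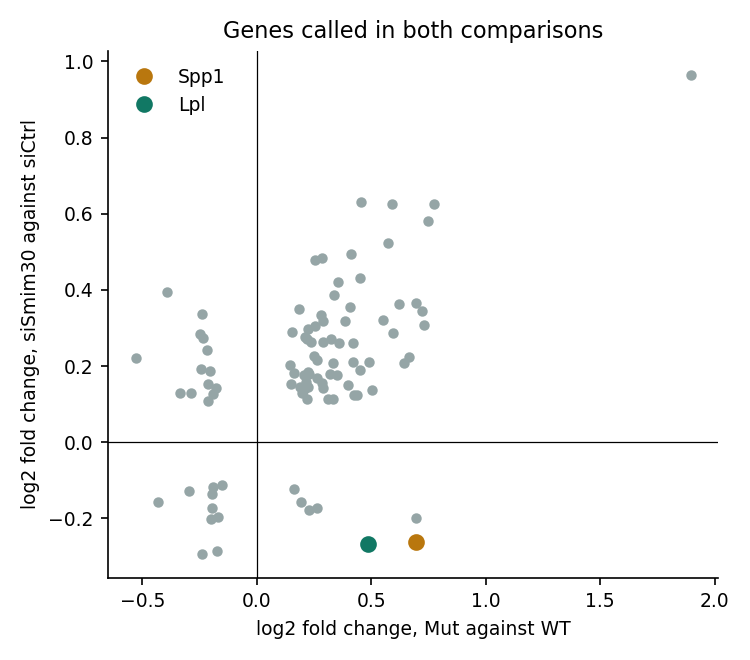
log2 fold change in Mut against WT (horizontal) and in siSmim30 against siCtrl (vertical) of the 96 genes called in both. The lower right quadrant holds 7 genes, with Lpl at 0.49 and -0.27 and Spp1 at 0.70 and -0.26.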

How the data were processed

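The deposited files hold raw counts per gene. Per the file headers, the authors counted read pairs over exons with featureCounts 2.0.3, reverse-stranded, on GENCODE M25 (GRCm38); the submitters' processing notes also name fastp, FastQC, HISAT2 and DESeq2 3.1.0. The library number inside each header differs from that in the file's name, and each file was taken for the sample it was deposited under. Symbols came from GENCODE M21 for 55141 of 55401 genes, with 260 unmatched. Smim30 was taken as 2610001J05Rik from general knowledge, since the tables lack the newer name.

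CPM is a gene's count scaled to a library total of 1000000. Each of 4 comparisons used its own 6 libraries in edgeR 4.0.16 (R 4.3.3), with filterByExpr, TMM, glmQLFit (robust), glmQLFTest and Benjamini-Hochberg adjustment over all genes tested, with 0.05 as the threshold. The fit was tested on simulated data. Alternatives included DESeq2 1.42.0 and limma-voom (limma 3.58.1), other scalings and filters, a fit of all 18 libraries, a replicate block and each library left out. Likeness was Pearson's r of log2 CPM (TMM over 18 libraries, prior count 2), each part centred, among genes with an average log2 CPM of at least 4. Genes with clone names and pseudogenes were not named for likeness. From each list the text names up to 4 called, non-overlapping genes of largest change, and for likeness the 5 highest and 5 lowest; Pparg, Lmf1, Angptl4, Gpihbp1, neighbours and genes opposed between comparisons were named after their values were seen. The genes and lists were chosen with earlier results of these data known. Proteins were not used here.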

Additional observations from a re-analysis of the deposited data

Results flagged for a closer look

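A rule was applied to Spp1, Lpl and the genes named from the lists other than cell type markers, not to all genes. All Mut libraries had to lie on one side of all WT libraries. All siSmim30 libraries had to lie on the opposite side of all siCtrl libraries. Genes other than Spp1 and Lpl also had to be called in both of these comparisons. Spp1, Lpl, Acsl1 and Lrp1 passed. Among genes tested in all 3 Smim30 comparisons, 21 were called in opposite directions in these 2, so such opposition is not particular to the genes that passed. The log2 fold changes in Mut against WT and in siSmim30 against siCtrl were 0.70 and -0.26 for Spp1 and 0.49 and -0.27 for Lpl. For Acsl1, which activates fatty acids, they were 0.16 and -0.12, and for Lrp1, an endocytic lipoprotein receptor, -0.22 and 0.15. The difference between the comparisons was not tested for any of them, and Spp1 and Lpl had been chosen for it. The Lrp1 call in Mut was lost without any 1 of WT replicates 1 and 3 and Mut replicates 1 and 3 (adjusted p 0.0835 to 0.117), with limma-voom (0.149), library totals alone (0.16), the fit of all 18 libraries (0.313) and the replicate block (0.109). Its call after the siRNA was lost without siSmim30 replicate 2 (0.0796) and in the fit of all 18 libraries (0.697). Both calls of Acsl1 were lost with DESeq2 (0.0567 and 0.055). They were also lost without any 1 of WT replicates 2 and 3 and Mut replicates 1 and 2 (0.0682 to 0.223), and without any 1 of siCtrl replicate 2 and siSmim30 replicates 2 and 3 (0.0745 to 0.231).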

How the results depend on the processing

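Spp1 and Lpl kept their direction in all 15 alternatives of each comparison. The log2 fold change of Spp1 ranged from 0.64 to 0.77 in Mut against WT, 0.16 to 0.20 with the Smim30 virus, -0.29 to -0.24 with the siRNA and 0.33 to 0.40 in Mut AdCtrl against Mut; that of Lpl from 0.46 to 0.53, 0.17 to 0.21, -0.29 to -0.25 and -0.45 to -0.38. Of 131 values of single named genes, 96 kept direction and call, 35 lost the call in at least 1 alternative and 0 reversed. An alternative that gave no adjusted p was counted as kept. The 131 leave out Acsl1, Parp14 and Rai14 in Mut against WT and with the siRNA. Each of those calls was lost in at least 1 alternative. Genes called numbered 788 in Mut against WT, 181 with the Smim30 virus, 472 with the siRNA and 6862 in Mut AdCtrl against Mut. For Mut against WT, DESeq2 called 636 and the fit of all 18 libraries 1198. With single libraries left out it was 469 (without Mut replicate 2) to 957. For the virus, DESeq2 called 68 and the fit of all 18 called 87. With single libraries left out it was 66 (without Mut AdSmim30 replicate 3) to 453 (without Mut AdCtrl replicate 3). It was 82 without Mut AdCtrl replicate 1 and 106 without Mut AdSmim30 replicate 2. For the siRNA, DESeq2 called 291 and the fit of all 18 called 263. With single libraries left out it was 309 (without siCtrl replicate 2) to 422. For Mut AdCtrl against Mut, DESeq2 called 5937 and the fit of all 18 called 7442. With single libraries left out it was 6274 to 6666. The cause was not tested. With library totals alone the siRNA calls split into 269 higher and 226 lower, in place of 324 and 148. Same-numbered replicates deviated together with r of -0.124 to 0.074, and not every library correlated best with its own number. The main fits used no pairing, though these values cannot exclude one. A replicate block gave 782, 253, 546 and 6688 calls in that order of comparisons. Chosen after seeing the data, main transcript lengths reversed the Spp1 to Lpl log2 ratio in WT (-0.70) and Mut (-0.49) and gave 0.29 and 0.27 in the control and Smim30 virus groups and 1.19 in both siCtrl and siSmim30. TMM over 18 libraries put Spp1 at 864, 1402, 1839, 2087, 1125 and 930.4 CPM and Lpl at 4103, 5749.6, 4398, 5038, 1439.9 and 1187 CPM in WT, Mut, Mut AdCtrl, Mut AdSmim30, siCtrl and siSmim30.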

Other observations

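Genes of lipid-associated macrophages, a state in which Spp1 and Lpl are often listed, were followed as 17 other members, all tested. In Mut 1 rose, Itgax, and 2 fell, Fabp5 and Plin2, beside 3.68% and 2.62% of all genes, with a median log2 change of -0.01 equal to that of all genes. None of these 3 calls held throughout: Itgax was lost without any 1 of WT replicates 1 and 2 and Mut replicates 1, 2 and 3 (adjusted p 0.0508 to 0.119), and Fabp5 (0.058 to 0.0799) and Plin2 (0.149 to 0.267) without any 1 of WT replicates 2 and 3 and Mut replicates 1 and 2, Plin2 also with DESeq2 (0.0663). With the Smim30 virus, where 0.583% of all genes rose and 0.842% fell, 2 rose, Itgax (0.19 ± 0.03, adjusted p = 1.8e-06) and Cd36 (0.11 ± 0.02, adjusted p = 5.19e-04), and 2 fell, Fabp4 (-0.14 ± 0.04, adjusted p = 0.0228) and Apoe (-0.09 ± 0.02, adjusted p = 0.00166). The Cd36 call was lost in the fit of all 18 libraries (0.34). The Apoe call was lost there (0.539), with DESeq2 (0.0723) and without Mut AdSmim30 replicate 3 (0.0766), and the Fabp4 call without any 1 of Mut AdCtrl replicates 1 and 2 and Mut AdSmim30 replicates 1 and 3 (0.118 to 0.338). After the siRNA 2 fell, beside 1.09% of all genes: Gpnmb (-0.11 ± 0.02, adjusted p = 0.00154, lost in the fit of all 18 libraries at 0.128) and Fabp5 (-0.17 ± 0.04, adjusted p = 0.00531), and the Fabp5 call was lost without siCtrl replicate 3 (0.0755) or siSmim30 replicate 1 (0.11). In Mut AdCtrl against Mut, where 27.1% of all genes rose, 14 rose, among them Plin2 (1.66 ± 0.04), Clec7a (1.34 ± 0.04) and Trem2 (1.19 ± 0.05), while Lpl was lower.

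Osteoclasts also make osteopontin in quantity, and 4 of their 6 markers were tested. In Mut Dcstamp (0.80 ± 0.13, adjusted p = 1.46e-04) and Acp5 (0.52 ± 0.06) rose, beside 3.68% of all genes, while Ctsk (0.01 ± 0.05) and Atp6v0d2 (-0.08 ± 0.05) did not pass the test. With the Smim30 virus edgeR, DESeq2 and limma-voom each called 0 of 4, and 1 had an unadjusted p under 0.05 in edgeR. The median log2 change there was 0.01, against 0.00 over all genes, of which 1.43% were called. After the siRNA, where 1.09% of all genes fell, Ctsk fell (-0.19 ± 0.03, adjusted p = 3.71e-06), as did Atp6v0d2 (-0.26 ± 0.07, adjusted p = 0.014), whose call was lost without any 1 of siCtrl replicates 1 and 3 and siSmim30 replicates 2 and 3 (0.0626 to 0.0993) and with DESeq2 (0.0574). In Mut AdCtrl against Mut, with 53.6% of all genes called, all 4 were called in mixed directions: Atp6v0d2 (1.49 ± 0.04) and Ctsk (0.62 ± 0.04) rose, and Acp5 (-2.25 ± 0.05) and Dcstamp (-0.62 ± 0.12) fell. The markers summed to 1041 to 1155 CPM in WT, 1182 to 1228 in Mut, 1997 to 2029 in Mut AdCtrl, 1993 to 2028 in Mut AdSmim30, 1674 to 1741 in siCtrl and 1435 to 1511 in siSmim30, and their part in the Spp1 difference was not tested.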
